A study of Mus musculus with 9 samples.

Results

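Meox1, Meox2, Pax1, Pax9 and Nkx3-2 are 5 regulators shared by the somite, the limb girdles and early cartilage or muscle. They were found by symbol among the 24102 rows of an expression table from sorted mouse limb cells, and each matched 1 row. The 5 genes were chosen by name with results of the same table known, among them the mutant-to-control differences of Meox1 and Pax9. Their difference between genotypes is therefore given as a description, with no test. The authors also deposited 1352 symbols as direct targets that Shox2 represses, and 0 of the 5 are among them. With 1352 symbols beside 24102 rows, a count over 5 genes says little about whether they are direct targets.

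The cells were GFP-positive cells sorted from dissociated limbs of embryos at E12.5. The mutants were Shox2(Cre/-);Rosa(mTmG), with Cre at 1 Shox2 allele and a mutant second allele, and the controls were Shox2(Cre/+);Rosa(mTmG), with Cre at 1 allele and a normal second allele. All columns used here thus carry Cre at the Shox2 locus and the mTmG reporter, which turns green once Cre has acted, so the sort takes cells that make or once made Cre from Shox2 and not every limb cell. The table holds 3 mutant and 3 control columns, 1 of each from litters 1, 2 and 3. The labels name 4 mutant samples, 2 of them from litter 1, and which of these the litter 1 mutant column holds could not be settled from the labels. The number of embryos behind a column, and whether forelimbs, hindlimbs or both were taken, are not given either. Values were taken as FPKM, a measure scaled to transcript length and to the size of the library, so levels can be compared between genes. Depth is unknown.

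Meox1 and Meox2 encode homeodomain factors of the somite that are needed in overlapping ways for the axial skeleton, and Meox2 is also needed for normal limb muscle in the mouse. Pax1 and Pax9 encode paired-box factors of the sclerotome, the part of the somite that forms vertebral cartilage, with overlapping roles there. Pax1 also acts in the shoulder girdle, and Pax9 in teeth, palate and the first digit. Nkx3-2, also called Bapx1, encodes a homeodomain repressor that acts downstream of Meox and Pax1/Pax9 in the mouse sclerotome and holds back cartilage maturation.

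The targeted gene Shox2 was at 16.7, 18.3 and 96.9 FPKM in the mutants of litters 1, 2 and 3, against 217, 222 and 210 FPKM in the controls. The mutant kept 46.2% of the control level in litter 3, against 7.68% and 8.25% in litters 1 and 2. The limb mesenchyme gene Prrx1 ran from 106 to 246 FPKM, and the cartilage genes Sox9 and Col2a1 from 32.2 to 112 and from 418 to 703 FPKM over the 6 columns, so defining genes of limb mesenchyme and cartilage were present in each. Kdm5d and Eif2s3y, on the Y chromosome, were at 0 FPKM in the litter 2 mutant, where the other columns ran from 4.78 to 8.86 and from 14.4 to 23.9 FPKM. Xist, the RNA of the inactive X chromosome, was at 36.8, 178 and 68.4 FPKM in the mutants of litters 1, 2 and 3 and 12.1, 34.6 and 73.0 FPKM in the controls, so it was also present in every column with Y-linked RNA. The sex make-up of a column is not given, and its part in a difference between genotypes cannot be told apart, in litter 2 above all.

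The promoters of Pax1 and Pax9 are shown as those of a paralogue pair that was above the control in all 3 litters, since the gene disrupted here encodes a homeodomain factor. Meox2 and Nkx3-2 were above it in all 3 litters too. The Nkx3-2 window overlaps an annotated transcript and is not shown, nor is one for Meox1 or Meox2. The windows run from 250 to 51 bases before the start in the RefSeq table of GRCm38.p6, a later build than the mm9 of the deposited table, and are written 5′ to 3′. Capitals mark TAAT, the core read by many homeodomains, searched on both strands (TAAT or ATTA).

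Pax1, chr2:147364744-147364943, plus strand: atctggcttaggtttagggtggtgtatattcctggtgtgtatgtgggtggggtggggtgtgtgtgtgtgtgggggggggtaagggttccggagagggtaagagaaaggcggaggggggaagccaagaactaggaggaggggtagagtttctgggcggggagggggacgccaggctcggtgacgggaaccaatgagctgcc
Pax9, chr12:56695221-56695420, plus strand: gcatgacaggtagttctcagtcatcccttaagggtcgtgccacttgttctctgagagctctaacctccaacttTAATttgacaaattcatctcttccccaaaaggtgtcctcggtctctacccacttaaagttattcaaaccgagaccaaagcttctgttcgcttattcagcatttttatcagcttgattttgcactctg

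The Pax9 window held 1 match and the Pax1 window 0. Such a match is found in 50.1% of 32851 windows of the same length in that table, so neither window is unusual in this. The match is a description of letters and not a binding site.

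Meox1 was the 1 member below the controls, and by its group means it differed most in proportion, while in litters 2 and 3 Pax9 differed more. Its level was 10.2, 13.8 and 14.9 FPKM in the mutants of litters 1, 2 and 3, against 31.5, 33.7 and 35.0 FPKM in the controls. The highest mutant column lay 16.6 FPKM below the lowest control column, so the groups did not overlap. The means were 13.0 ± 2.49 FPKM in the mutants and 33.4 ± 1.75 FPKM in the controls (SD, n = 3 each). The difference in log2(FPKM + 1) averaged -1.32 ± 0.20 (SD over 3 litters), and 0.065% of the 12314 tested rows had a lower one. In percent of its own litter's control, Meox1 stood at 32.2%, 41.0% and 42.6% in litters 1, 2 and 3. The litter 3 mutant, which had the most Shox2 left, was thus close to the litter 2 mutant in Meox1.

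Its paralogue Meox2 was the most abundant of the 5 genes and differed least in proportion. It was at 55.4, 62.1 and 59.8 FPKM in the mutants, against 55.3, 51.5 and 50.1 FPKM in the controls. The groups did not overlap, but by a margin of 0.113 FPKM, since the litter 1 mutant and control were at almost the same level. The mutant stood at 121% and 119% of the control in litters 2 and 3 and at 100.2% in litter 1. The means were 59.1 ± 3.39 FPKM in the mutants and 52.3 ± 2.71 FPKM in the controls (SD, n = 3 each), a difference of 0.17 ± 0.15 in log2(FPKM + 1).

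**Figure D1:**
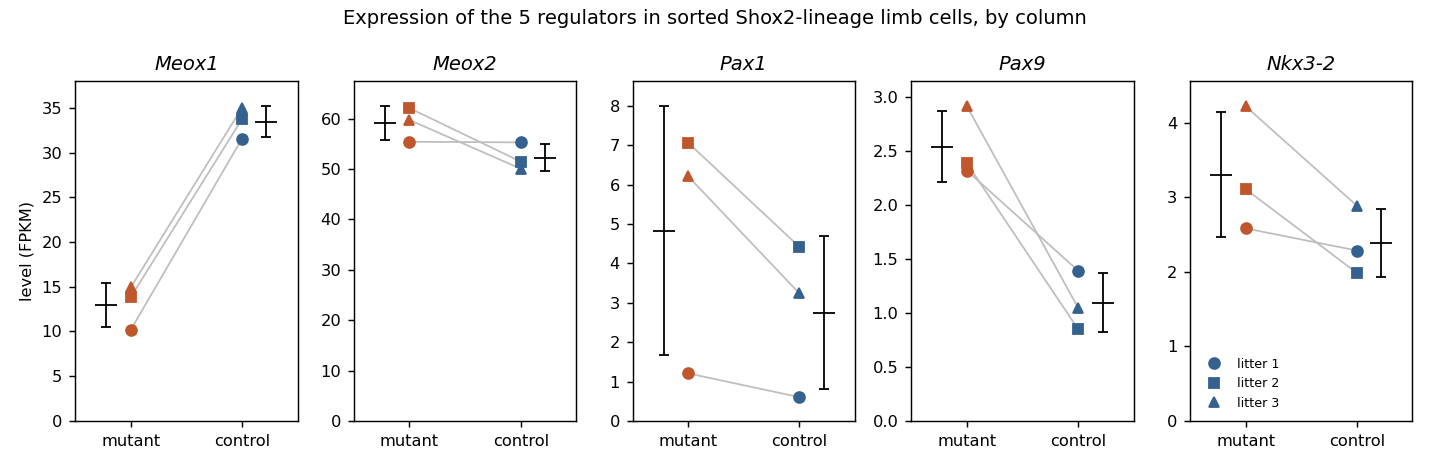
Level in FPKM of each of the 5 genes in the mutant (orange) and control (blue) columns, with columns of a litter joined by a grey line and a black mark for the mean ± SD (n = 3 columns). Meox1 is lower in each mutant column, Pax9 higher in each, and both Pax1 columns of litter 1 lie below those of the other litters.

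The pair of Meox genes therefore differed in make-up between genotypes. Meox1 held 15.5%, 18.2% and 20.0% of the summed Meox FPKM in the mutants, against 36.3%, 39.6% and 41.1% in the controls. The shares averaged 17.9 ± 2.25% in the mutants and 39.0 ± 2.46% in the controls (SD, n = 3 each). The sum itself was 72.1 ± 5.64 FPKM in the mutants and 85.7 ± 0.988 FPKM in the controls. In each column Meox2 was above Meox1.

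Pax9 was a low gene that was higher in the mutants. It was at 2.32, 2.39 and 2.92 FPKM in the mutants, against 1.39, 0.850 and 1.05 FPKM in the controls. The lowest mutant column exceeded the highest control column by 0.928 FPKM. The mutant stood at 167%, 281% and 278% of the control in litters 1, 2 and 3. The means were 2.54 ± 0.326 FPKM in the mutants and 1.10 ± 0.274 FPKM in the controls (SD, n = 3 each), a difference of 0.76 ± 0.25 in log2(FPKM + 1). Only 1.92% of tested rows had a lower control mean than Pax9, and on this scale the change of so low a gene is understated.

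Pax1 was also higher in the mutant of each litter, but litters differed more than genotypes did. It was at 1.21, 7.06 and 6.21 FPKM in the mutants, against 0.603, 4.42 and 3.24 FPKM in the controls. The groups overlapped because both litter 1 columns were low. Litters 2 and 3 averaged 5.50 times litter 1 in the mutants and 6.35 times litter 1 in the controls. Within litters the mutant stood at 200%, 160% and 192% of the control, a difference of 0.60 ± 0.15 in log2(FPKM + 1). Because the header gives a normalisation per litter, the scaling may not be common to the 3 litters, and the gap between them is given with that limit. Meox2, by comparison, spanned 1.12-fold among mutants and 1.10-fold among controls.

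In consequence the order of the Pax paralogues turned between litters. Pax9 held 65.8% of the summed Pax1 and Pax9 FPKM in the litter 1 mutant and 69.8% in the litter 1 control. It held 25.3% and 31.9% in the mutants of litters 2 and 3, and 16.1% and 24.5% in their controls. The sum was 7.37 ± 3.33 FPKM in the mutants and 3.85 ± 1.68 FPKM in the controls (SD, n = 3 each).

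**Figure D2:**
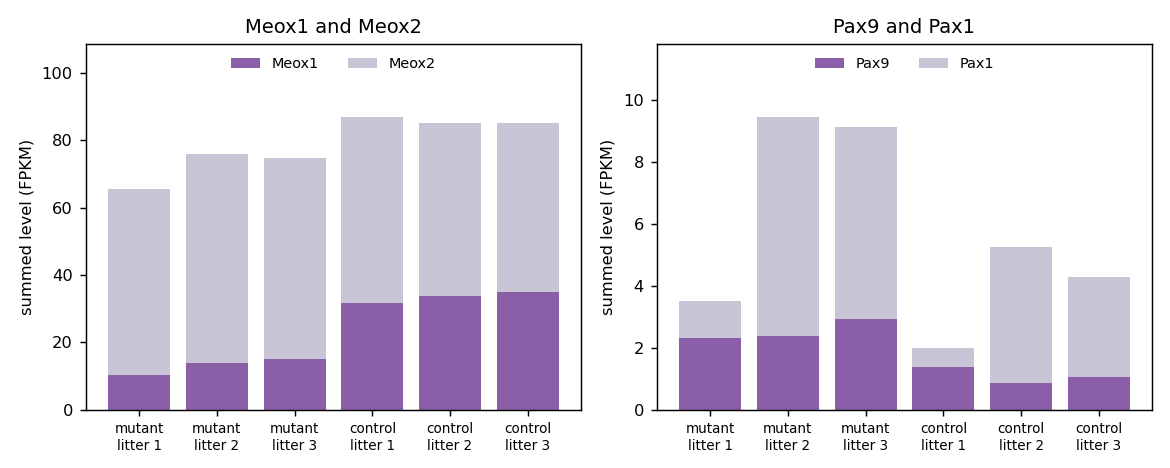
Stacked FPKM of Meox1 with Meox2 (left) and of Pax9 with Pax1 (right) in each mutant and control column. The Meox1 part is smaller in the mutants, and Pax9 is the larger part only in the litter 1 columns.

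Nkx3-2 was at 2.58, 3.11 and 4.22 FPKM in the mutants, against 2.29, 1.99 and 2.89 FPKM in the controls. The groups overlapped, since the litter 1 mutant lay below the litter 3 control. The mutant stood at 113%, 157% and 146% of its control in litters 1, 2 and 3. The means were 3.31 ± 0.837 FPKM in the mutants and 2.39 ± 0.460 FPKM in the controls (SD, n = 3 each), a difference of 0.34 ± 0.18 in log2(FPKM + 1).

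All 5 genes entered the row filter of 1 FPKM or more in at least 3 columns, Pax1 and Pax9 with 5 columns and the others with 6. The mutant was above its control in all 3 litters for 4 of the 5, as in 15.7% of all tested rows, and below it in all 3 for Meox1 alone, as in 22.3% of rows. Groups did not overlap for 2 genes above the controls (Meox2 and Pax9), as in 4.22% of rows, and for 1 below (Meox1), as in 5.03%. These shares are background only, because this contrast was known when the genes were chosen. The median difference over all tested rows was -0.07, -0.03 and 0.00 in litters 1, 2 and 3.

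**Figure D3:**
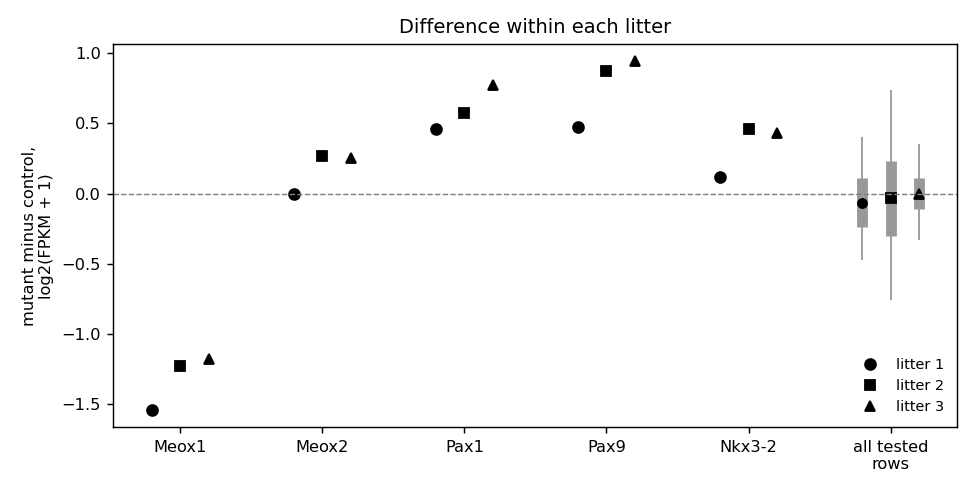
Mutant minus control difference in log2(FPKM + 1) within litters 1, 2 and 3 for each gene, beside the median, the middle 50% (thick bar) and the 5th to 95th percentile (thin line) of 12314 tested rows. Meox1 lies from -1.54 to -1.18, and Pax9 from 0.47 to 0.94.

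By level, the order was Meox2 above Meox1 above the other 3 genes in both genotypes. Pax9 lay below Nkx3-2 in each of the 6 columns. The ranges of these genes overlapped in the mutants and not in the controls, and the range of Pax1 overlapped both in either genotype. Other family members were low. Of the 7 other Pax genes the highest value in any column was 1.14 FPKM, for Pax3 in the litter 2 control. Pax3, which marks muscle progenitors, was otherwise at or below 0.388 FPKM, and Pax7 ran from 0.272 to 0.610 FPKM in the mutants and from 0.216 to 0.547 FPKM in the controls. Of the 20 listed NK, Bar and related homeobox genes, only Barx1 entered the test, a homeobox gene of mesenchyme and joints, at 4.09, 7.47 and 8.25 FPKM in the mutants and 3.22, 9.13 and 7.27 FPKM in the controls.

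Read assignment between the members was checked on GENCODE M21 transcripts of GRCm38. The longest run of bases shared was 12 between Meox1 and Meox2 and 26 between Pax1 and Pax9. Meox1, Meox2 and Nkx3-2 shared no stretch of 50 bases with another gene, and 0.848% of such stretches in Pax1 and 1.48% in Pax9 occurred in other genes. An annotated gene on the opposite strand overlaps Meox1, Pax1 and Pax9, and the sources used here do not say whether counting used strand. Gm48617, annotated on the same strand within an intron, overlaps Meox2. Slc25a21, which overlaps Pax9, did not exceed 0.499 FPKM, and AI646519, which overlaps Pax1, did not exceed 0.632 FPKM. Gm11551, Gm48617 and Gm15524, which overlap Meox1, Meox2 and Pax9, matched no row by name, so their levels are unknown.

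Genes around these regulators were followed in lists of somite, girdle, hedgehog, cartilage and muscle genes. Over all tested rows limma called 0 rows, or 0% of 12314, between mutants and controls at an adjusted p under 0.05, and likewise 0% with litter as a block. At an unadjusted p under 0.05 there were 272 rows higher and 167 lower without the block, and 658 higher and 775 lower with it. Of the 122 tested genes of the lists, 0 passed in either fit. At an unadjusted p under 0.05, 5 were higher and 7 lower without the block, and 14 higher and 19 lower with it.

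Somite and sclerotome genes had a median log2 difference of 0.00 over 14 tested of 24, against -0.04 over all rows. At an unadjusted p under 0.05, 1 was higher and 1 lower, and with the block 1 was higher and 2 lower. Uncx, a homeobox gene of the sclerotome, and Mesp2, a segmentation factor, did not exceed 0.598 and 0.144 FPKM, so defining somite genes were near 0. Tbx18, a T-box factor of the somite that also acts in limb mesenchyme, was at 77.3, 82.3 and 90.3 FPKM in the mutants, against 104, 65.3 and 101 FPKM in the controls, and the groups overlapped. Scx, a tendon factor first seen in the somite's tendon progenitors, was at 57.5 ± 10.2 FPKM in the mutants and 80.3 ± 3.76 FPKM in the controls (limma adjusted p = 1.00). Tcf15, a helix-loop-helix factor of the somite epithelium, was at 3.59, 5.24 and 6.17 FPKM in the mutants and 4.99, 11.9 and 7.21 FPKM in the controls, below its control in 3 of 3 litters (limma adjusted p = 1.00). With the litter block the limma adjusted p was 0.322 for Scx and 0.365 for Tcf15. Foxc1, a forkhead factor, was at 32.3 ± 2.38 and 37.6 ± 5.42 FPKM in mutants and controls, and Eya2, a transcriptional co-activator, at 8.98 ± 2.89 and 6.72 ± 2.18 FPKM.

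Girdle and proximal limb regulators had a median of 0.06 over all 25 listed genes. At an unadjusted p under 0.05, 1 was higher and 0 lower, and with the block 5 were higher and 2 lower. Alx1, a paired-type homeobox gene, had the smallest p of this list, at 5.38, 4.29 and 5.40 FPKM in the mutants and 1.75, 0.871 and 2.43 FPKM in the controls. Its log2 difference was 1.20 (SE 0.25, limma adjusted p = 0.670 without and 0.0663 with the litter block). Over 17 alternatives the adjusted p of Alx1 ran from 2.83e-07, in the block fit on litters 1 and 3 with 1 residual degree of freedom, to 1.00 by limma. Gli3, the main repressor of hedgehog target genes in the limb, was at 29.2 ± 2.18 FPKM in the mutants and 22.8 ± 3.07 FPKM in the controls without overlap (limma adjusted p = 1.00). With the litter block the limma adjusted p of Gli3 was 0.384. Isl1, a LIM homeobox factor of the hindlimb field, was at 4.88 ± 1.73 and 7.34 ± 2.01 FPKM in mutants and controls, and Irx3, an Iroquois factor, at 17.0, 25.4 and 23.4 FPKM in the mutants and 12.3, 23.0 and 12.7 FPKM in the controls. Emx2, which is needed for the scapula, was at 13.8, 25.2 and 28.5 FPKM in the mutants and 15.9, 19.6 and 29.5 FPKM in the controls, with overlap.

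Hedgehog signalling induces Pax1 and Pax9 in the somite. Its listed inputs and targets had a median of -0.09 over 15 tested of 19. An unadjusted p under 0.05 was reached by 1 gene above and 2 below the controls. With the block 2 were higher and 4 lower. The receptor gene and target Ptch1 was at 15.4 ± 2.46 FPKM in the mutants and 23.1 ± 1.72 FPKM in the controls, without overlap and below the controls (limma adjusted p = 0.962). The co-receptor gene Boc was at 69.5 ± 7.04 FPKM in the mutants and 50.1 ± 6.11 FPKM in the controls, above them without overlap (limma adjusted p = 1.00). With the litter block the limma adjusted p was 0.166 for Ptch1 and 0.331 for Boc. In these columns Ptch1 was thus on the side of Meox1, while Pax1 and Pax9 were on the other.

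Early cartilage genes had a median of 0.06 over 25 tested of 28, which ran from -0.13 to 0.23 when single columns were left out. Unadjusted p fell under 0.05 for 2 genes above and 1 below the controls, and with the block for 4 above and 6 below. Sox5, a partner of Sox9, was at 10.1, 12.7 and 10.2 FPKM in the mutants and 5.19, 6.33 and 6.86 FPKM in the controls, without overlap (limma adjusted p = 0.732). Sox6, another partner, was at 10.2 ± 0.936 FPKM in the mutants and 7.72 ± 0.644 FPKM in the controls, also without overlap (limma adjusted p = 1.00). With the litter block the limma adjusted p was 0.0998 for Sox5 and 0.340 for Sox6. Comp, a cartilage and tendon matrix gene, was at 1.72 ± 0.562 FPKM in the mutants and 3.96 ± 1.73 FPKM in the controls, and the growth plate signal Ihh at 1.49 ± 1.20 and 3.16 ± 1.05 FPKM.

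**Figure D4:**
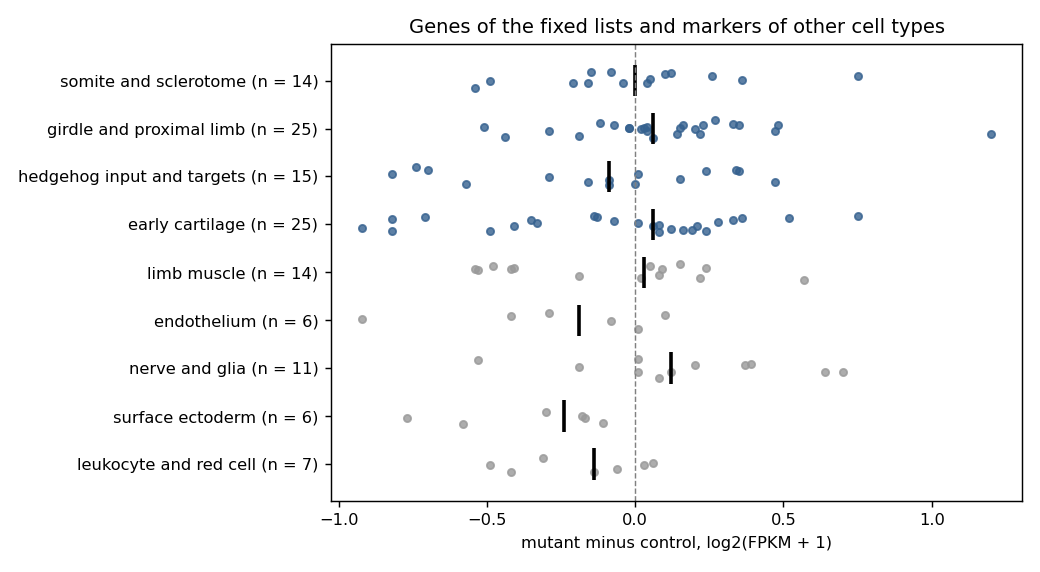
Mutant minus control difference in log2(FPKM + 1) of each tested gene in the lists (blue, pathway lists; grey, markers of other cells), with a black bar at the list's median. Medians lie between -0.24 and 0.12, and the point farthest to the right is Alx1 at 1.20.

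Muscle cells and their progenitors also make Meox genes, and muscle markers are therefore given beside them. The 24 muscle genes summed to 62.8 to 106 FPKM in the mutants and 41.5 to 111 FPKM in the controls, with overlap, and none was at 0 in every column. The highest sum was that of the litter 2 control, against 41.5 and 89.6 FPKM in the controls of litters 1 and 3. The progenitor markers Pax3, Pax7 and Myf5 stayed at or below 1.14, 0.610 and 0.515 FPKM. Lbx1, a homeobox gene of migrating progenitors, was at 0.334 to 0.838 FPKM in the mutants. In the controls it was at 0.339, 3.15 and 0.606 FPKM, so only the litter 2 control, which also held the highest Pax3 value, stood out. Others of the list were higher, with Met, a receptor gene of the same cells, at 2.01 to 2.78 FPKM in the mutants and 1.66 to 2.53 FPKM in the controls. The muscle actin gene Actc1 was at 20.5 to 21.3 FPKM in the mutants and 9.86 to 40.4 FPKM in the controls, a level within reach of Meox1. The part of muscle cells in the Meox values was not tested. Myog, a myogenic factor, was at 8.25, 8.37 and 5.88 FPKM in the mutants and 3.86, 7.35 and 3.54 FPKM in the controls. Tnni1 and Tmem8c, a troponin and a fusion gene, were at 2.22 ± 0.428 and 1.63 ± 0.583 FPKM in the mutants and 3.86 ± 1.89 and 2.48 ± 0.671 FPKM in the controls. Myl1, a myosin light chain gene, was at 2.64 ± 2.96 FPKM in the mutants and 4.09 ± 2.93 FPKM in the controls.

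Endothelial cells are another known source of Meox2. The 13 endothelial markers summed to 22.5 to 29.2 FPKM in the mutants and 29.3 to 38.1 FPKM in the controls. The groups parted narrowly, with the mutants below. The highest sum was that of the litter 2 control, against 30.3 and 29.3 FPKM in the controls of litters 1 and 3. Erg and Egfl7, which overlapped between the groups, made up a large part of the sum. Pecam1, Cdh5, Tek, Tie1, Flt1, Sox17 and Sox18 overlapped too, with Pecam1 at 1.06 to 1.26 FPKM in the mutants and 0.648 to 3.81 FPKM in the controls. Only Cldn5, Emcn, Kdr and Esam parted, each with the mutants below. Emcn and Esam were too low for the row filter. Cldn5 and Kdr were thus 2 of 6 tested markers, where 5.03% of all tested rows parted in this direction. Cldn5, a tight junction gene, was at 0.611 to 0.781 FPKM in the mutants and 1.38 to 3.66 FPKM in the controls. Emcn, a surface sialomucin gene, was at 0.578 to 0.662 FPKM in the mutants and 0.949 to 1.49 FPKM in the controls. Kdr, a receptor gene for vascular growth factor, was at 0.793 to 1.04 FPKM in the mutants and 1.22 to 2.33 FPKM in the controls. Surface ectoderm markers, 13 genes, summed to 20.0 to 26.8 FPKM in the mutants and 25.1 to 50.6 FPKM in the controls, with overlap. The litter 2 control again had the highest sum, against 25.1 and 28.3 FPKM in the controls of litters 1 and 3. None of these markers was at 0 in every column. The epithelial keratin gene Krt18 was at 5.63 ± 0.376 FPKM in the mutants and 8.89 ± 0.792 FPKM in the controls (limma adjusted p = 0.816). Fgf8, the signal of the limb's apical ridge, was at 4.86 ± 2.02 FPKM in the mutants and 8.73 ± 2.27 FPKM in the controls (limma adjusted p = 1.00). With the litter block the limma adjusted p was 0.142 for Krt18 and 0.0998 for Fgf8. The other tested genes of this list, Krt5, Krt14, Perp and Epcam, overlapped between the groups. In litter 1 Krt5, Krt14 and Perp were above the control, while Epcam was below it in all 3 litters. The median log2 difference over the 6 tested ectoderm genes was 0.00, -0.74 and -0.05 in litters 1, 2 and 3. The 13 nerve and glia markers summed to 58.6 to 113 and 56.6 to 110 FPKM in mutants and controls, and the 11 leukocyte and red cell markers to 240.0 to 722 and 343 to 604 FPKM. Most of the latter sum was the globin gene Hbb-y, at 182 to 567 FPKM in the mutants and 267 to 409 FPKM in the controls. The leukocyte genes Ptprc and Coro1a did not exceed 0.337 and 8.03 FPKM. The nerve and glia genes went both ways, with a median log2 difference of 0.12 over 11 tested. Ngfr, a neurotrophin receptor gene, differed by -0.53, and the axon genes Nefl and Stmn2 and the glial receptor gene Erbb3 by 0.70, 0.64 and 0.39. Nefl and Stmn2 overlapped between the groups and were higher in 2 of 3 litters. Both were highest in the litter 1 mutant, at 24.3 and 14.3 FPKM. Of other neuronal genes in the list, Nefm differed by 0.37, and Tubb3, Elavl3 and Elavl4 by 0.01, 0.01 and 0.08. The part of these cells in the differences above was not tested. In sorted bulk samples, fewer cells of a type and less RNA per cell cannot be told apart.

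Candidates were the 3504 rows that averaged at least 5 FPKM and had an SD of at least 0.3 in log2(FPKM + 1). Those most like each member over the 6 columns were named by Pearson's r, as a description, since the columns share genotype and litter. Those nearest to Meox1 were Igfbp3, Rdh10, Sim2, Ptch1 and Aspn, with r from 0.958 to 0.970. Igfbp3, a binding protein of insulin-like growth factors, was at 52.4, 70.0 and 72.7 FPKM in the mutants and 108, 95.9 and 109 FPKM in the controls. Sim2, a helix-loop-helix PAS factor, was at 4.35, 8.49 and 8.46 FPKM in the mutants and 14.1, 14.8 and 17.4 FPKM in the controls. Each of these genes, like Meox1, was lower in every mutant column than in any control column, as were 5.03% of all tested rows. Their choice by likeness to Meox1 over the same columns favours this, so it is no separate result.

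The rows nearest to Pax1 followed litters. They were Osr2, Mdfic, Ssc5d, Arxes2 and Eif3h, with r from 0.986 to 0.993. Osr2, an odd-skipped factor of limb mesenchyme and joints, was at 19.1, 42.0 and 43.4 FPKM in the mutants and 14.0, 32.7 and 26.9 FPKM in the controls. The rows nearest to Pax9 were Slc1a3, Gdf5, Chrdl1, Pdk1 and 1190002N15Rik, with r from 0.965 to 0.978. Chrdl1, a secreted BMP antagonist, was at 27.6, 28.8 and 28.1 FPKM in the mutants and 14.2, 9.40 and 13.2 FPKM in the controls. Meox2 came nearest to Fzd9, Pcdh8, Slc1a3, Slc16a3 and Stard8, with r from 0.890 to 0.934. Nkx3-2 came nearest to Grem1, Rarres1, Tmem138, Myl9 and Prr16, with r from 0.935 to 0.973, and Grem1, a BMP antagonist of the limb bud, was at 12.8, 15.6 and 19.2 FPKM in the mutants and 9.997, 8.49 and 12.7 FPKM in the controls.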

How the data were processed

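RNA from sorted limb cells was sequenced, and 3 mutant and 3 control columns of 1 deposited table were used. TopHat, Cuffdiff and the mm9 build are named in the submitters' processing notes, without versions, and the sources used here give no annotation or filter. Per the file headers, values were normalised by Cuffdiff's geometric method, stated for each litter. The deposited values were taken as FPKM, since Cuffdiff reports that unit and the header names none. The 2 whole limb samples were not analysed here.

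Here log2(FPKM + 1) was fitted over 12314 rows at 1 FPKM or more in at least 3 columns, with limma 3.58.1 in R 4.3.3 (intensity trend, no litter term), and p-values were adjusted over all rows by the Benjamini-Hochberg method at 0.05. The fit was tested on simulated data. The members, the 11 gene lists and the rule for named genes were chosen with earlier results of these data known. The rule took the members, up to 4 genes a list by p among those averaging at least 2 FPKM, genes called in any fit, and the 5 rows most like each member. Uncx, Mesp2, Tbx18, Emx2, Pax3, Pax7, Myf5, Met, Lbx1, Emcn, Kdr, Xist, Slc25a21 and AI646519 were added after their values were seen. So were Pecam1, Cdh5, Tek, Tie1, Esam, Flt1, Sox17, Sox18, Krt5, Perp, Ptprc, Coro1a and Elavl3. Some genes that the rule names are not reported here. Of 194 distinct list symbols, 189 matched a row. The labels and the table header give the litter, so its number pairs the columns. Deviations from group means correlated within litters 1, 2 and 3 at 0.87, 0.57 and 0.77. No source says how many embryos a column holds, so p-values measure only the spread between columns.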

Additional observations from a re-analysis of the deposited data

How the results depend on the processing

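Under 16 alternatives each, Meox1 stayed below the controls (log2 difference -1.42 to -1.16), and Meox2 (0.13 to 0.26), Pax1 (0.07 to 1.20), Pax9 (0.67 to 1.16) and Nkx3-2 (0.19 to 0.46) stayed above. Without the litter 2 pair, where Y-linked genes differed, the values were -1.36, 0.13, 0.61, 0.70 and 0.28. Pax1 was 0.83 with a pseudocount of 0.1 and with column weights, 0.07 without control replicate 1 and 1.20 without mutant replicate 1, which leaves litter 1, where Pax1 was low, in 1 genotype only. Pax9 was 1.16 with a pseudocount of 0.1. With litter as a replicate block, limma called 0 rows, as without it. Column weights gave 15 calls. The block gave 534 calls with the litter 2 pair left out and 36 with the litter 3 pair left out, each with 1 residual degree of freedom. Leaving out single columns gave 0 to 1 calls, 1 without mutant replicate 3 and 1 without control replicate 3. The block with the litter 2 pair left out called 29 list genes, 13 higher (among them Actc1, Alx1, Elavl4, Foxf2, Irx3, Myog, Nefl, Nefm, Osr2, Sox5, Stmn2 and Tubb3) and 16 lower (among them Cldn5, Comp, Cytl1, Fgf8, Gli1, Ihh, Isl1, Krt18, Matn1, Matn4, Ngfr, Osr1, Ptch1, Runx2 and Scx), against 0 in all other fits. The girdle median was 0.20 with column weights, 0.12 once the litter 1 pair was left out and 0.17 once the litter 2 pair was, in both cases with or without the block, and -0.02 to 0.23 without single columns. The somite and hedgehog medians ran from -0.12 to 0.11 and from -0.17 to 0.25 without single columns. The surface ectoderm median was -0.67 at a mean of 5 FPKM or more. The cause of these shifts was not tested beyond what is stated. Depth is unknown and limits Pax9, Pax1 and Nkx3-2 most, and 3 columns against 3 cannot give an exact permutation p below 0.1.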
